A study of Drosophila melanogaster with 3 samples.

Results

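The regions described here were Jarid2-GFP binding peaks whose summit lay 101 to 1000 bp downstream of a protein-coding start site in the Drosophila melanogaster genome. They were taken from the peak list that the authors had thresholded for reproducibility across replicates on the dm6 build, by measuring the distance from each summit to the nearest start of any protein-coding transcript, along the strand of that gene. Of 5464 reproducible peaks, 679 (12.4%) met the rule. Of these, 195 had a stronger summit within 300 bp and were set apart as secondary peaks. The other 484 peaks, called primary here, were assigned by nearest start to 458 genes. For 130 of the 484 peaks (26.9%) the start of another coding gene also lay within 1000 bp. The 1896 primary peaks with a summit 0 to 100 bp downstream of a start served for comparison and are called start-proximal.

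Chromatin immunoprecipitation with sequencing (ChIP-seq) had been done with an antibody against GFP on whole embryos, 0 to 24 h old and of both sexes, of a transgenic strain, Jarid2-GFP, that stably expressed Jarid2 with GFP at its C terminus. The series had 1 group of 3 biological replicates, and the chromatin was sheared by sonication into fragments of 200 to 800 bp. Each replicate had its own list of 30000 candidate peaks, of which the 5464 strongest were used so that the lists were of equal length. No embryos without the tag were analysed here, the sequencing depth was unknown, and whole embryos mix all cell types and stages of embryogenesis, so that binding in few cells and weak binding in many cannot be told apart. No marker of a cell type could be checked, since the lists hold only peaks.

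Jarid2 is a protein with a Jumonji domain and an AT-rich interaction domain that binds DNA and is found with Polycomb repressive complex 2 (PRC2), the enzyme complex that methylates lysine 27 of histone H3. In flies, Polycomb proteins are recruited to response elements that carry short motifs for factors such as GAGA factor, Pho and Combgap. Fly promoters fall into classes. Many developmental genes start at a focused site with an initiator motif and hold paused RNA polymerase just downstream, where GAGA factor and a GC-rich pause motif are often found. Many broadly expressed genes have instead the motifs of M1BP or DREF, DNA-binding proteins of housekeeping promoters. The region just beyond the start can hold the paused polymerase and the first nucleosome, and further on the first intron, a frequent place of enhancers.

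The sequences below come from the Release 6 reference assembly, which shares coordinates with dm6, and are written 5′ to 3′ on the strand of the gene. The first 4 are shown because GTGTGT, the letters of the Combgap motif, stood further above the flanks at the primary downstream summits than the letters of GAGA factor, Zeste or Pho. Each is a stretch of 30 bases around the match nearest to the summit, with the match in capitals (GTGTGT, or ACACAC where it lay on the other strand). All 4 summits lay in a 5′ UTR.
Drak, chrX:11493244-11493273, plus strand: ccgcaaagcgaaACACACaaaaaaaaagaa
Pits, chrX:12582995-12583024, minus strand: tgcctaagtgtgGTGTGTggtgtgtgtgcc
Wdr62, chr2L:1884751-1884780, plus strand: acgcgtgcctccGTGTGTgtgtgtatgtgt
Stat92E, chr3R:20550877-20550906, minus strand: tcgcactgcgtcGTGTGTgtaatgtttgtg
In Wdr62 the capitals stood at the start of a longer run of alternating G and T.

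The next 4 show GGTCACACT, the letters of the M1BP motif, in capitals. These came from within 100 bp of the start and not from the summit, since the letters were rare at the summits and more frequent at the starts of these peaks than at those of start-proximal peaks.
Wdr62, chr2L:1884588-1884617, plus strand: tcacccctctGGTCACACTgaacacataat
msn, chr3L:2586525-2586554, minus strand: tcggctaattGGTCACACTgttggaatccg
MED19, chr3L:17846474-17846503, minus strand: gtcgcaatgcGGTCACACTggttcgcggac
kel, chr2L:18138031-18138060, minus strand: acccgaggctGGTCACACTgctctggtcgc
All 4 matches lay on the strand of the gene.

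CAGGTA, the letters of Zelda, an activator that opens chromatin in the early embryo, is shown in capitals (or as TACCTG on the other strand) at 4 summits more than 200 bp downstream. It was more frequent there than in the flanks.
CG9921, chrX:16332974-16333003, minus strand: taaagagcagtgCAGGTAcaaaaagccatt
Raf, chrX:2296339-2296368, plus strand: cgtgttaatccaCAGGTAagttgggctgaa
CHES-1-like, chrX:7709127-7709156, minus strand: acggatggacctCAGGTAggctaaatatgt
CG31729, chr2L:13290382-13290411, plus strand: gtgtgtttacccTACCTGtttaccgctcaa
The letters overlap those of a splice donor where AGT follows, as in Raf, the kinase of the MAP kinase cascade, and such a match cannot be assigned to one or the other.

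The last 3 are the 101 bases centred on strong intronic summits beyond 200 bp for which no annotated UTR overlapped the stretch. None of them holds GAGAGA or the Combgap or Zelda letters, so they carry no capitals.
CG9663, chr2L:3302137-3302237, minus strand: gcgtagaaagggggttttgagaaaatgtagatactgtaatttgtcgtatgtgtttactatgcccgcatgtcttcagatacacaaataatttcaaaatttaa
CG31612, chr2L:21794915-21795015, minus strand: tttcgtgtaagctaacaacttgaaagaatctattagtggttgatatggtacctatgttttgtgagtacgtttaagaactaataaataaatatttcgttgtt
simj, chr3L:10665672-10665772, plus strand: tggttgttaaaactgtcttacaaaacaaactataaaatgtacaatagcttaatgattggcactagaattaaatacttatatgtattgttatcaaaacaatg

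The primary downstream peaks consisted of a steep edge next to the start-proximal peaks and a flat remainder. In steps of 20 bp, 130 summits lay at 101 to 120 bp and 64 at 121 to 140 bp, against 549 at 61 to 80 bp and 260 at 81 to 100 bp. Within the first 100 bp of the zone, at 101 to 200 bp, lay 273 of the 484 summits (56.4%), and the equally long replicate lists gave 56.1% ± 1.25 (SD, n = 3). The next 100 bp held 41 summits, and each further step of 100 bp held between 19 and 29. The median distance was 165 bp, with quartiles of 119 and 501 bp. The zone was therefore also described in 2 pieces, 101 to 200 bp (273 peaks) and 201 to 1000 bp (211 peaks), a division chosen after the distances had been seen.

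**Figure D1:**
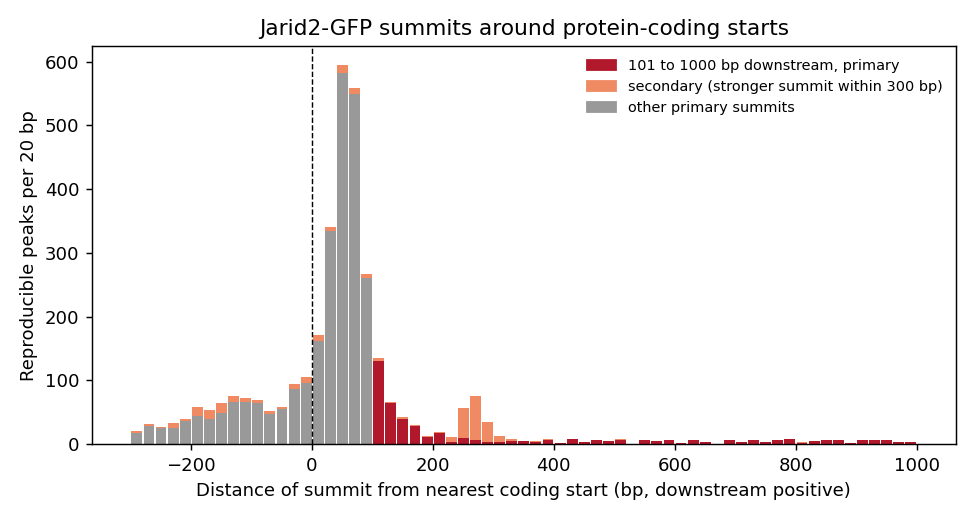
Number of reproducible peaks per 20 bp (vertical axis) by distance of the summit from the nearest protein-coding start (horizontal axis, bp), with primary downstream peaks in red, secondary peaks of any position in orange and other primary peaks in grey. The primary counts drop from 549 at 61 to 80 bp to 64 at 121 to 140 bp and then stay low, and the orange hump near 270 bp is made of secondary peaks.

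The number of primary peaks in the zone varied little between replicates, with 529, 511 and 528 in replicates 1, 2 and 3 (523 ± 10.1, SD, n = 3). At the lower bound, 10 members lay at 101 bp, with ranks of 195 to 4505 by signal, and the 5 strongest of them were Drak, Mgat2, CG33144, Gprk2 and numb. Just outside lay CG3902, CAH3 and HmgD at 100 bp, with ranks of 580 to 3737, and 10 peaks at 99 bp, with ranks of 2 to 4901, of which Psc and kek2 were the strongest. At the upper bound the nearest members were eas at 1000 bp, Acsl at 997 bp, cue at 989 bp, simj at 983 bp and CG43131 at 980 bp, with ranks of 545 to 5035, and just outside lay mtgo, Tsp97E, Svil, C3G and Tab2 at 1009 to 1029 bp, with ranks of 1426 to 4568. On the X chromosome lay 17.8% of the primary downstream peaks and 13.4% of the start-proximal peaks, beside 17.0% of coding start positions.

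The primary downstream peaks were weaker than the start-proximal ones. Their median rank by signal, which counts from 1 for the strongest peak, was 3070 of 5464 (quartiles 1728 and 4236), against 1597.5 (quartiles 628 and 2978) for start-proximal peaks. Their median signal, a value the authors' peak caller gave on its own scale for this list, was 271, against 454. Among the 2732 strongest peaks stood 203 of 484 primary downstream peaks (41.9%, exact 95% binomial interval 37.5 to 46.5), against 1347 of 1896 start-proximal peaks (71.0%, 68.9 to 73.1). Among the 546 strongest stood 26 (5.37%) and 417 (22.0%). Expressed as a percent of the list, so that larger means weaker, the median rank in the replicate lists was 55.3 ± 0.556 for downstream and 28.2 ± 1.26 for start-proximal peaks (SD, n = 3). The difference was 25.9, 29.1 and 26.2 points in replicates 1, 2 and 3 (exact two-sided sign-flip permutation test over replicates, p = 0.25, the smallest this test allows with 3 replicates). This test was run on 13 comparisons, each with all 3 replicates on the same side and hence with the same p before any adjustment. None of them could pass a threshold of 0.05. Further motifs were compared between summits and flanks without the test, and some of those differences changed sign between replicates. For the CTCF letters they were 2.27, −1.17 and −0.568 points in replicates 1, 2 and 3, and for the Sp and KLF letters −0.567, −1.37 and 0.379.

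The farther piece of the zone had the weaker median. The median rank was 2822 at 101 to 200 bp and 3408 at 201 to 1000 bp, beside 2759 for primary peaks upstream of starts and 3575.5 for those more than 1000 bp from any start. The quartiles of these groups overlapped widely. In steps of 100 bp, the median rank at 201 to 300 bp was 2866, close to that at 101 to 200 bp. In the steps beyond 300 bp it varied between 3383.5 and 3899 without a steady decline.

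**Figure D2:**
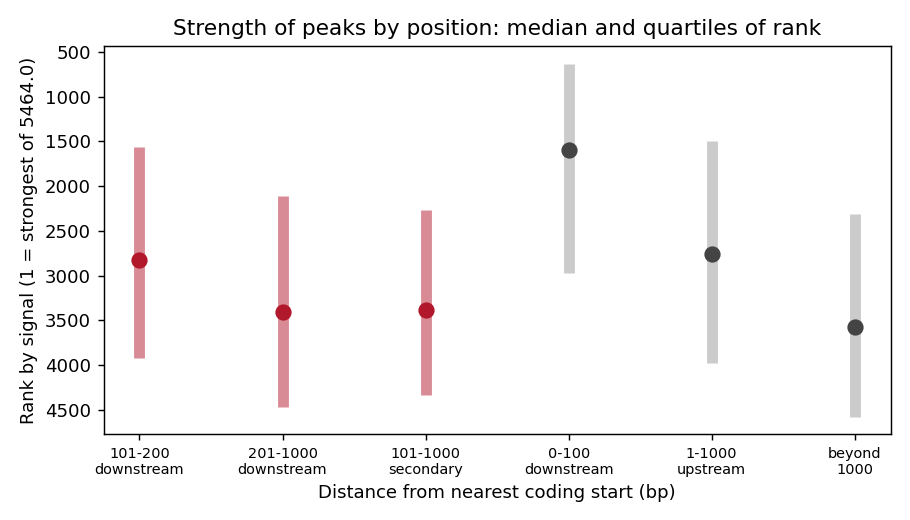
Rank by signal (vertical axis, strongest at the top) for peaks grouped by distance from the nearest protein-coding start. Points are medians and bars run between the quartiles, downstream groups in red and the other groups in grey. The start-proximal peaks have the strongest median (1597.5), while the downstream groups lie between 2822 and 3408.

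The strongest primary downstream peak, with signal 1909 and rank 59, lay 105 bp into the first exon of chrb (charybde, FBgn0036165), an inhibitor of growth through the TOR pathway, at chr3L:11487436-11488024. Its rank was 33, 95 and 90 in the lists of replicates 1, 2 and 3, and its summit lay 107, 105 and 102 bp from the start. The second, with rank 148, lay 244 bp into the 5′ UTR of odd (odd-skipped, FBgn0002985), a pair-rule gene that encodes a zinc finger repressor, at chr2L:3606220-3606980. It ranked 139, 128 and 211 in the replicates, with summits at 235, 234 and 235 bp. odd also had a start-proximal summit, counted over all starts of the gene. Whether that summit lay at the same start as the downstream peak was not tested.

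Drak (FBgn0052666), a kinase that acts on myosin light chain, had rank 195 (215, 197 and 200 in replicates 1, 2 and 3), and zip, the heavy chain of nonmuscle myosin, had rank 310 (336, 282 and 355). PRAS40, an inhibitor of TOR complex 1, had rank 301, and its replicate ranks of 483, 190 and 559 differed more. Stat92E, the transcription factor of the JAK/STAT pathway, had rank 392 (369, 433 and 373), and Mkp3, a phosphatase of MAP kinase, rank 399 (341, 402 and 395). kay, the fly Fos, had rank 255 (257, 313 and 218), and msn, a kinase upstream of Jun kinase, rank 320 (450, 333 and 303). These 7 peaks lay in 5′ UTRs at 101 to 163 bp. Pits (rank 232) and Wdr62 (rank 246), which encodes a centrosome protein, were likewise at 114 and 132 bp.

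The transcription factor gene Eip75B (FBgn0000568), an ecdysone-induced nuclear receptor, had 3 primary downstream peaks, each at a different start. They lay 365, 112 and 279 bp from those starts and had ranks 209, 405 and 543. In replicates 1, 2 and 3 the first ranked 225, 215 and 233, the second 342, 407 and 403, and the third 412, 722 and 455. The genes CAP and Trpm also had 3 such peaks, and 23 genes had 2 or more, which together made up 49 of the 484 peaks.

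Fewer of the strong members lay in introns. The strongest was in CG9663 (FBgn0031516), 943 bp from the start at chr2L:3302007-3302336, with rank 201 and replicate ranks of 254, 277 and 123. Adf1, which encodes a DNA-binding transcription factor, had a peak at 844 bp with rank 381, but its replicate ranks of 428, 1005 and 135 spread over a wide range. The intronic peak of simj, which encodes a subunit of the nucleosome remodelling and deacetylase complex, lay at 983 bp with rank 545 (646, 565 and 506). CG8320 (141 bp, rank 409) and CG31612 (482 bp, rank 536) completed the 5 strongest intronic peaks. The strongest peaks in coding sequence were weaker. They lay in Calr, which encodes the chaperone calreticulin (122 bp, rank 744), GstE11, a glutathione S-transferase (144 bp, rank 1048), Gip (124 bp, rank 1306), CG1532 (116 bp, rank 1340) and Rdh (111 bp, rank 1366).

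The summits of the strong members differed in how well their position held between replicates. For Drak the replicate summits lay at 101, 97 and 93 bp, for lbk at 52, 94 and 100 bp, for zip at 85, 96 and 101 bp and for chk at 79, 107 and 63 bp, so that part of them fell on the start-proximal side. For CG9663 they lay at 934, 940 and 939 bp, and for Adf1 at 838, 855 and 841 bp. Across the zone, a summit of a replicate's list of 30000 lay within 200 bp for 482, 475 and 476 of the 484 peaks, with a median shift of 16.7 ± 5.13 bp (SD, n = 3). Of these matched summits 83.5% ± 3.44 were again 101 to 1000 bp from the same start and 15.5% ± 3.71 were 0 to 100 bp from it. At 101 to 200 bp, 119 of 273 peaks (43.6%) kept the zone in all 3 replicates, and at 201 to 1000 bp 195 of 211 did (92.4%). The median shift was alike in both pieces (16.7 ± 7.09 and 15.7 ± 2.31 bp), while 130 of the 273 nearer summits lay within 20 bp of the bound.

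**Figure D3:**
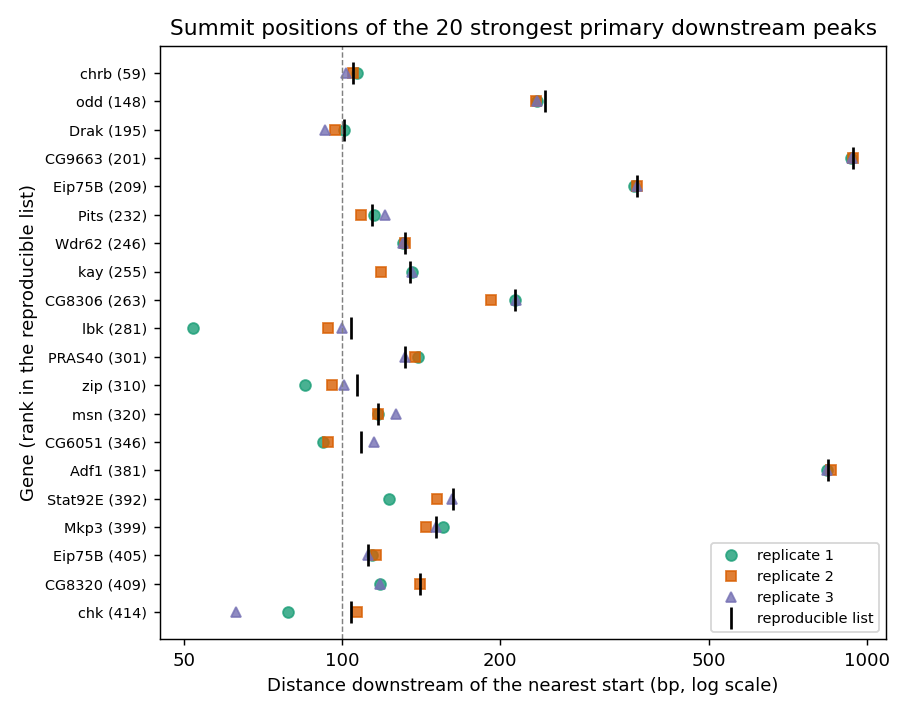
Distance of the summit downstream of the start (horizontal axis, log scale) in each replicate's list and in the reproducible list for the 20 strongest primary downstream peaks, listed by gene with the rank in parentheses. The dashed line marks 100 bp. The replicate summits of CG9663 lie within 934 to 940 bp, whereas those of lbk (52 to 100 bp) fall short of 101 bp.

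Support by the replicates followed strength. A summit within 200 bp among the 5464 strongest peaks of every replicate was found for 304 of the 484 primary downstream peaks (62.8%, 58.3 to 67.1), against 1562 of 1896 start-proximal peaks (82.4%, 80.6 to 84.1). Of the remaining downstream peaks, 129 had such a summit in 2 replicate lists, 49 in 1 and 2 in none. Among the 2732 strongest peaks the share held by all 3 was 97.0% (197 of 203) for downstream and 98.1% (1322 of 1347) for start-proximal peaks, and among the weaker remainder 38.1% (107 of 281) and 43.7% (240 of 549), intervals that overlap in both cases. The reproducible list was made from the same replicates, so this support is not independent of it. Replicate 3 alone lacked 56 downstream peaks, replicate 1 alone 40 and replicate 2 alone 33.

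The position within the gene changed along the zone. Of the 484 summits, 257 (53.1%; 55.2% ± 2.39 over the replicate lists) lay in a 5′ UTR, 170 (35.1%; 33.5% ± 3.00) in an intron and 48 (9.92%; 10% ± 0.937) in coding sequence, while 2 lay in a 3′ UTR and 7 beyond the end of a short gene. The share in a 5′ UTR was 75.5% (206 of 273) at 101 to 200 bp and 24.2% (51 of 211) at 201 to 1000 bp, where 65.9% (139) were intronic. Of the start-proximal summits 95.5% lay in a 5′ UTR. The rule on distance sets much of this, since a summit further from the start is more often past the first exon. First exons at the starts concerned had a median length of 337 bp for downstream and 373 bp for start-proximal peaks, beside 246 bp at all coding starts. The summit lay inside the first exon for 229 of 263 peaks at 101 to 200 bp (87.1%) and for 54 of 206 at 201 to 1000 bp (26.2%), counted over starts whose transcripts have an intron.

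**Figure D4:**
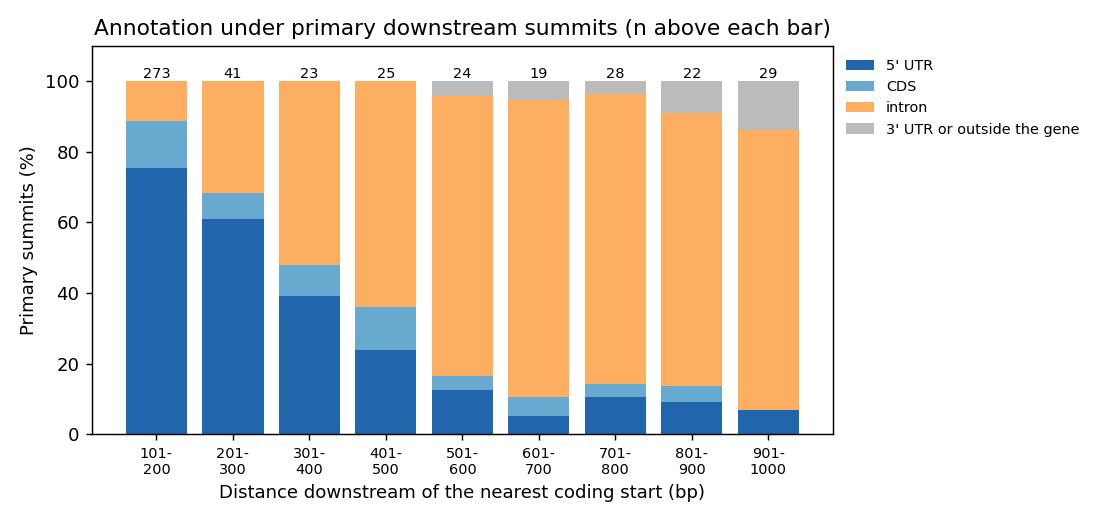
Percent of primary downstream summits (vertical axis) in a 5′ UTR, in coding sequence, in an intron, or in a 3′ UTR or outside the gene, by distance from the start in steps of 100 bp, with the number of peaks above each bar. The 5′ UTR share is 75.5% in the first step and 6.90% in the last.

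The intervals of the peaks nearer to the start mostly reached over the start itself. The interval that the authors' caller drew around the summit covered the start for 250 of 273 peaks at 101 to 200 bp (91.6%), for 17 of 211 at 201 to 1000 bp (8.06%), and for 97.8% of start-proximal peaks. The median width of the interval was 450 bp for downstream and for start-proximal peaks, so the distance of the summit sets much of this contrast. By that distance, the word promoter describes the nearer piece better than the farther one. Few summits lay at the start of a non-coding transcript. Such a start was within 100 bp for 3 of 484 (0.620%), against 22 of 1896 start-proximal summits (1.16%). Peaks nearest to a gene with 1 annotated start position made up 39.5% of the downstream and 42.4% of the start-proximal peaks. Of all coding genes 73.5% had 1 start position. This last share counts genes and not peaks, and a gene with several starts offers more of them to be nearest, so it is not a like comparison.

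A start-proximal summit at the same gene was present for 121 of 484 primary downstream peaks (25%; 24.3% ± 1.89 over the replicate lists). The rule lowers this share, since it set apart the peaks with a stronger summit within 300 bp, and for 162 of those 195 that summit was start-proximal. With the limit at 200 bp the share was 38.5%. Under the main rule, 44 of 273 peaks at 101 to 200 bp (16.1%, 12 to 21) and 77 of 211 at 201 to 1000 bp (36.5%, 30 to 43.4) had such a summit. The rule bears unequally on these 2 shares. A start-proximal summit at the same start lies within 200 bp of any summit at 101 to 200 bp, so a stronger one always sets that peak apart. Most of the farther piece lies beyond this reach, so the 2 shares cannot be compared.

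The start sites of these peaks carried promoter motifs in other proportions than the start-proximal ones. Within 100 bp of the nearest start, GGTCACACT, the M1BP letters, occurred on either strand for 43 of 484 downstream peaks (8.88%, 6.50 to 11.8) and for 85 of 1896 start-proximal peaks (4.48%, 3.60 to 5.51), beside 4.42% of 19253 coding start positions. In the replicate lists the shares were 8.62% ± 1.23 and 4.80% ± 0.369, a difference of 3.17, 5.57 and 2.75 points in replicates 1, 2 and 3 (exact sign-flip p = 0.25). TATCGATA, the DREF letters, occurred at 33 downstream starts (6.82%, 4.74 to 9.44) and 70 start-proximal starts (3.69%, 2.89 to 4.64), beside 6.45% of all. The replicate lists gave 8.31% ± 1.12 and 3.77% ± 0.114 (exact sign-flip p = 0.25, higher in 3 of 3). The DREF letters stood at 27 of the 273 starts of peaks at 101 to 200 bp (9.89%) and at 6 of the 211 of peaks further on (2.84%), whereas the M1BP letters were spread over both pieces (9.52% and 8.06%).

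The motifs of focused and paused promoters went the other way. TCAGT, the core of the initiator, was found on the strand of the gene within 100 bp of 37.0% of downstream starts (32.7 to 41.5) and 51.9% of start-proximal starts (49.6 to 54.2), beside 32.3% of all coding starts. Over the replicate lists the shares were 36.7% ± 1.93 and 51.3% ± 0.507. CGGNCG, letters of the pause motif, stood at 20% (16.6 to 23.9) and 29.2% (27.1 to 31.3), beside 11.7% of all, and the replicate lists gave 19.4% ± 0.692 and 28.7% ± 0.593. GAGAGA, the GAGA factor letters, stood at 17.8% (14.5 to 21.5) and 23.3% (21.4 to 25.2), beside 9.74% of all, with 16.3% ± 1.41 and 23.2% ± 0.464 in the replicate lists. All 3 were lower at downstream starts in 3 of 3 replicates (exact sign-flip p = 0.25 each), and all 3 were still above the share at all coding starts. TATAAA was found at 8.88% and 10.1%, intervals that overlap (6.50 to 11.8 and 8.80 to 11.6), beside 19.1% of all coding starts.

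**Figure D5:**
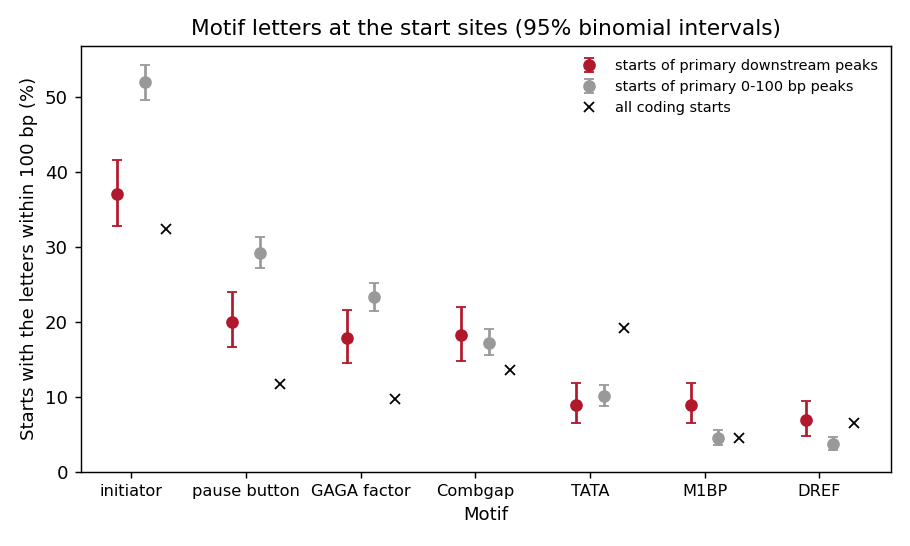
Percent of start sites (vertical axis) with the letters of 7 motifs within 100 bp, for the starts of primary downstream peaks in red, those of start-proximal peaks in grey (bars are exact 95% binomial intervals, which cover counting error alone), and all coding starts as crosses. M1BP and DREF are higher at the downstream starts (8.88% against 4.48%, and 6.82% against 3.69%), and the initiator is lower (37.0% against 51.9%).

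At the summits themselves, GTGTGT occurred on either strand within 100 bp of 120 of 484 primary downstream peaks (24.8%, 21 to 28.9). In flanks of the same width centred 1000 bp further downstream it occurred in 77 (15.9%), and at all coding starts, in windows centred 165 bp downstream, in 16.2%. The replicate lists gave 10.8, 7.44 and 12.5 points more at the summits than in the flanks in replicates 1, 2 and 3 (exact sign-flip p = 0.25). Start-proximal summits had the letters at 21.9% (20.1 to 23.9), an interval that overlaps that of the downstream summits. GAGAGA was found at 57 summits (11.8%, 9.04 to 15) and 40 flanks (8.26%), beside 6.25% at all starts at the same distance and 12.2% of start-proximal summits. That difference of 3.51 points turned to −1.24 points with windows of 50 bp on each side and to −1.86 points against flanks mirrored upstream of the start, so no direction was established for it. The core of the Pho motif, GCCAT, was found at 27.5% of summits and 31.0% of flanks, beside 34.5% at all starts at that distance, and was lower at the summits than in the flanks in 3 of 3 replicate lists (by 5.67, 4.11 and 7.77 points). The Zeste letters TGAGTG were found at 12.6% of summits (9.78 to 15.9) and 9.09% of flanks, beside 10.7% at all starts at that distance. The core promoter letters were counted in the same windows. The pause letters CGGNCG had 17.6% (14.3 to 21.3) at the summits and 7.64% in the flanks, the initiator letters TCAGT had 25% (21.2 to 29.1) and 16.3%, and TATAAA had 11.4% (8.68 to 14.5) and 15.9%. At all starts at that distance the 3 shares were 10.5%, 16.9% and 10.4%. In the replicate lists CGGNCG was higher at the summits than in the flanks by 8.32, 8.22 and 5.11 points and TCAGT by 9.07, 9.0 and 9.28 points, while TATAAA was lower in 3 of 3 (mean difference −3.49 points). For the following letters summits and flanks differed by less than a point. GGGCGG, of Sp and KLF factors, had 8.47% and 8.06%, the CTCF letters AGNNGGCG had 9.71% and 9.92%, and the splice donor letters GTAAGT had 5.17% at both.

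The 2 pieces of the zone differed in some of the letters at their summits. CGGNCG was found at 24.2% (19.2 to 29.7) of summits at 101 to 200 bp and at 9.0% (5.51 to 13.7) of those further on, beside 27.9% of start-proximal summits, with 20.9% ± 1.86 and 8.91% ± 2.37 in the replicate lists. At all coding starts the shares at the median distances of the 2 pieces, 122 and 574 bp, were 12.1% and 9.78%. TCAGT was found at 27.1% of summits and 14.7% of flanks at 101 to 200 bp, and at 22.3% and 18.5% further on. The replicate lists gave 22.8% ± 2.03 and 16.5% ± 1.71 for the farther piece. Windows at 101 to 200 bp reached into the first 100 bp past the start, and those further on did not. In the nearer piece CGGNCG stood at 14.3% in the 100 bases on the start side of the summit and 10.3% on the far side. TCAGT stood at 18.7% and 8.06%. In the farther piece the shares were 5.69% and 3.32% for CGGNCG and 13.3% and 10.9% for TCAGT. The part of the start in these shares was not tested. TATAAA was found at 6.96% of summits and 15.4% of flanks at 101 to 200 bp. Its shares further on were 17.1% and 16.6%, so the lower share at the summits was seen in the nearer piece only. CAGGTA was found at 17 of 211 summits beyond 200 bp (8.06%, 4.76 to 12.6) and at 3 of their flanks (1.42%), but also at 5.84% of all coding starts at 574 bp. The replicate lists gave 6.83% ± 0.296 at these summits and 2.60% ± 0.672 in the flanks (exact sign-flip p = 0.25, higher in 3 of 3). At 101 to 200 bp the letters were found at 2.20% of summits and 4.40% of flanks. The windows had a median GC content of 46.8% at 101 to 200 bp, 40.3% beyond 200 bp and 47.8% at start-proximal summits, and the part of GC content in the motif shares was not tested.

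The genes of the Polycomb system and its classical targets were counted in both classes of peaks. Among all 13945 protein-coding genes, 465 (3.33%) had a start with a primary summit 101 to 1000 bp downstream, counting both genes where 2 shared a start, and 1815 (13.0%) had a summit 0 to 100 bp downstream. Of 100 transcription factor genes known as Polycomb targets, 6 (6.0%) had a primary downstream peak and 54 (54.0%) a start-proximal one. The 6 were odd, knrl, srp, drm, slou and dac. Of these, odd and knrl (rank 1176, 123 bp), which encodes a nuclear receptor related to Knirps, were among the stronger peaks. srp, a GATA factor gene, had 2 peaks, at 543 bp with rank 2780 and at 107 bp with rank 3440. The remaining 3 had ranks from 3472 to 3640.

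None of 8 Hox genes had a primary downstream peak, while 4 had a start-proximal summit. Of 12 genes of Polycomb repressive complex 1, 1 had a downstream peak. It was ph-p (FBgn0004861), a polyhomeotic gene, with a summit 406 bp into its 5′ UTR at chrX:2137709-2138085, rank 477, replicate ranks of 372, 582 and 298 and replicate distances of 400, 415 and 449 bp. None of 8 PRC2 genes and 2 of 14 Trithorax genes had one. The 2 were Trl, the gene of GAGA factor (154 bp, rank 1079), and osa, a subunit gene of the Brahma remodelling complex (108 bp, rank 2378). The replicate summits of Trl lay at 151, 95 and 79 bp.

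Genes of signalling pathways also had more start-proximal than downstream peaks, as did all protein-coding genes. Of 57 signalling genes, 3 had a primary downstream peak and 30 a start-proximal one, among them Stat92E and arr, a Wnt co-receptor (866 bp, rank 3476). Of 23 Notch pathway genes the counts were 2 (numb, rank 1156, and E(spl)malpha-BFM, rank 5395) and 16. Of 20 ecdysone genes they were 3 and 12. The 3 were Eip75B, the kinase gene Eip63E (115 bp, rank 547) and the nuclear receptor gene Hr39 (786 bp, rank 4071), and all 3 also had a start-proximal summit. Of 35 axon guidance genes, 1 (Sema2a, 721 bp, rank 4685) had a primary downstream peak and 30 a start-proximal one. Of 21 insulin signalling genes, S6k and InR had a downstream peak, with ranks 3260 and 3920, and 5 a start-proximal one. Among 9 pair-rule genes the counts were 1 (odd) and 6, and among 10 gap genes 1 (knrl) and 6.

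In the lists of general metabolism and translation, at most 1 gene of each list had a primary downstream peak. Of 89 ribosomal protein genes 1 (RpS3, rank 3632) had a primary downstream peak and 26 a start-proximal one. Of 52 translation factor genes the counts were 1 (eIF3h, rank 2376) and 3, and of 14 glycolysis genes 1 (Pgk, rank 1728) and 3. No downstream peak was found for 32 aminoacyl-tRNA synthetase genes, 25 heat shock genes, 179 chemoreceptor genes or 122 cuticle genes, of which the heat shock genes had 2 with a start-proximal summit and the other lists none. The counts of primary downstream peaks were at most 6 in any list and are given without a test, beside the 3.33% of all genes.

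The 195 secondary peaks were a different population in position. Their median distance was 267 bp (quartiles 253 and 282), and 157 of them lay at 201 to 300 bp, where 41 primary peaks lay. The stronger summit was 199 to 257 bp away, with a median of 202 bp, and for 185 of 195 (94.9%) it was no more than 220 bp away. For 162 (83.1%) the stronger summit was 0 to 100 bp downstream of a start. The strongest secondary peaks were at wun, a lipid phosphate phosphatase gene (365 bp, rank 622, 252 bp beyond a stronger summit), at smash (282 bp, rank 649, 213 bp), at nmo, the Nemo kinase gene (278 bp, rank 735, 206 bp), at cora, a septate junction gene (275 bp, rank 932, 201 bp), and at cic, the gene of the repressor Capicua (287 bp, rank 938, 203 bp).

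Secondary peaks made up 28.7% (25.3 to 32.3) of the 679 downstream peaks and 2.22% (1.61 to 2.98) of the 1939 start-proximal ones, beside 11.7% of upstream and 6.08% of distant peaks. In the replicate lists the shares were 26.7% ± 3.06 and 2.38% ± 0.518, given without a test because the rule itself uses the stronger neighbour. With a match within 100 bp, which is short of the distance to the stronger neighbour, 78 of 195 secondary peaks (40%, 33.1 to 47.2) were held by all 3 replicates, against 275 of 484 primary downstream peaks (56.8%, 52.3 to 61.3). These shares were not matched for strength, and the secondary peaks were weaker, with a median rank of 3383 against 3070. Among the 2732 strongest peaks stood 33.8% of them, against 41.9% of the primary downstream peaks. The narrow range of spacings came from lists in which no member had a stronger summit closer than 199 bp, and the part of the peak caller in this spacing was not tested.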

How the data were processed

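Jarid2-GFP ChIP-seq of 3 biological replicates was represented by peak lists on dm6. Per the deposited notes, peaks had been called on each replicate and on the pooled replicates with a control alignment, and those lists were thresholded by irreproducible discovery rate (IDR). No aligner or caller is named in these sources, and their versions are not given in the sources used here. Each peak of the deposited lists carries a signal and a −log10 q-value. The authors' signal has no unit shared between lists, so it served to rank and filter peaks within 1 list. The −log10 q-value in the deposited lists was not used in a test. The depth was unknown.

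Starts, exons and UTRs came from the Ensembl release 115 annotation (BDGP6.54), with transposons left out, and sequences from the Release 6 assembly. The work covered chromosome arms 2L to 3R and chromosomes 4 and X, and 0 peaks lay beyond their ends. A summit inside a 5′ UTR of any transcript of its gene was assigned to it before coding sequence and intron. Peaks matched when their summits lay within 200 bp. Motifs were searched in windows of 100 bp on each side, on both strands, except the initiator, TATA, pause and splice donor letters, which were searched on the gene strand. N stands for any base, and 13 motifs were searched. Intervals are exact 95% binomial (Clopper-Pearson) intervals. They cover counting error only, and neighbouring peaks are not independent. Means are given with the SD over the 5464 strongest peaks of each replicate. With 1 group there was no comparison of conditions.

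The named members were the 20 strongest primary peaks, the 5 strongest in each annotation class, up to 4 per gene list, the 5 strongest secondary peaks and the peaks at the bounds, and members named beside a printed sequence were chosen for its motif. The members, the motifs and the 19 gene lists were chosen with earlier results of these data known. The split at 200 bp, the motif counts at start sites, the choice of sequences, current symbols for 9 list genes and the comparisons over replicates other than signal were set after the files were seen. Of the list symbols, 1 was not matched. Distances, zones and matches were tested on simulated data, in which 600 of 600 summits placed at known distances were recovered. These summits were placed only at starts far from any other start, so the choice between neighbouring starts was not tested. The computations used Python 3.11.15, numpy 2.4.6, pandas 2.3.3 and scipy 1.17.1. Alternatives are given in the closing section.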

Additional observations from a re-analysis of the deposited data

How the results depend on the processing

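With the lower bound over 150 bp, there were 271 primary peaks in the zone, with a median rank at 61.2% of the list, 33.2% in a 5′ UTR, 35.1% at genes with a start-proximal summit and GAGAGA 4.06 points over the flanks. With the upper bound at 500 bp the last 4 values were 52.7%, 68.0%, 19.9% and 2.49 points. With starts of all annotated transcripts, the 5′ UTR share was 46.9%, the share at genes with a start-proximal summit 21.2% and the GAGAGA difference 4.61 points. Among the 2732 strongest peaks there were 203 members, 97.0% held by all 3 replicates, 66.0% in a 5′ UTR, 16.3% with a start-proximal summit, and GAGAGA 2.96 points over the flanks. With a stronger summit sought within 200 bp, the median rank was at 57.7% of the list and the share with a start-proximal summit was 38.5%.

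A match within 100 bp gave 56.8% held by all 3, and replicate lists of doubled length 90.5%. The GAGAGA difference was −1.24 points with 50 bp on each side, 13.6 points with 200 bp, 0.413 points against a flank 500 bp downstream and −1.86 points against the mirrored flank, and the cause was not tested. In the list of replicate 1 alone the median rank was at 54.9% and the 5′ UTR share 56.1%, in that of replicate 2 alone the 5′ UTR share was 56.9%, and in that of replicate 3 alone the median rank was at 55.0%, the share with a start-proximal summit 23.1% and the GAGAGA difference 4.73 points. Each replicate was also left out in turn by keeping only the peaks of the reproducible list that both other replicates held. The list, made from all 3 replicates, was not rebuilt, so the lower number of peaks comes from this filter. The number then ranged from 337 to 360, the median rank from 57.8% to 58.6% of the shortened list and the 5′ UTR share from 56.2% to 57.8%. The share with a start-proximal summit ranged from 22.0% to 23.6% and the GAGAGA difference from 2.50 to 3.26 points. The share of matched summits in the zone, averaged without 1 replicate and with no such filter, ranged from 81.8% to 85.3%. The M1BP, DREF, initiator and GTGTGT differences kept their sign under every alternative run for them. The other window widths and flanks were tried for GAGAGA only, so the GTGTGT difference was not tested against them. For peaks beyond 200 bp alone, the DREF letters stood at 2.84% of starts (1.05 to 6.09). That was below the 3.69% of start-proximal starts (2.89 to 4.64), with overlapping intervals. The M1BP difference was 2.42 points among the 2732 strongest peaks, and the DREF difference 1.36 points with the lower bound over 150 bp. No paired analysis was possible because there was 1 group of samples, and the differences within each replicate's list were between peaks. Depth was unknown, so peaks below the threshold are not shown to be absent, and the sign-flip test over 3 replicates cannot give a p under 0.25.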
